A study of Mus musculus with 18 samples.

Results

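A330068G13Rik is a mouse gene that carries the name of a RIKEN clone, the kind of name used for transcripts that were found by sequencing of complementary DNA and have not been named for a function. It was chosen on the measured values themselves, for its strong decrease in glomeruli of mice that lack PTIP in podocytes, so its level and its loss are given here as a description and without a test. It is represented by 2 of the 58 probe sets in the table used, each a group of short probes whose signals are summarised to 1 value, and it is 1 of the 41 gene symbols there. They are called probe set A and probe set B here, A being the one with the larger difference between the genotypes. Both carry Entrez Gene identifier 414087, and the table lists a gene ontology term or a pathway for 0 of them.

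Podocytes are the epithelial cells that wrap the capillaries of the glomerulus, and their interlocking foot processes form part of the filter between blood and urine. PTIP, the product of Paxip1, acts in the nucleus of most cells together with enzymes that place methyl groups on histone H3 at lysine 4, a mark found at active promoters. Among the other transcripts lost in these mice, Wif1 encodes a secreted protein that binds Wnt ligands and blocks their signalling, and Ntrk3 encodes the receptor tyrosine kinase for neurotrophin-3. Both serve as references for A330068G13Rik, Wif1 by its only probe set and Ntrk3 by the one of its 5 probe sets with the largest difference, called its main probe set.

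The samples are fractions of kidney homogenate in which glomeruli were concentrated by sieving. Their RNA was hybridised to Affymetrix arrays, 1 for each of 18 mice. The 10 PTIP− mice were Paxip1 fl/fl or Paxip1 fl/− and carried a Cre transgene that is active in podocytes. The 8 PTIP+ mice were Paxip1 fl/fl or Paxip1 fl/− without Cre and are also labelled wild type. Which of the 2 Paxip1 genotypes a given mouse had, its strain background and any treatment are not given in the sources used here. Kidneys were taken at 4 weeks of age according to the protocol, whereas the labels list a different age for every mouse, from 1 to 18 months. The protocol's age was used. No group carried Cre with PTIP intact, so an effect of the transgene and one of the deletion cannot be told apart.

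Cre is active in podocytes, whereas the fractions also hold mesangial and endothelial cells of the glomerulus, which keep PTIP. The number of podocytes in them was not analysed here. Of 26 marker genes looked for, of podocytes, mesangial, endothelial, tubular and immune cells, 0 had a probe set in the table, so the makeup of the fractions was not analysed here. Paxip1 was not analysed here either, and the deletion itself was therefore not checked. The animal numbers in the array names fall into 3 series, which the labels do not call batches. Series 1 and series 3 each hold 3 mice of each genotype, and series 2 holds 2 PTIP+ and 4 PTIP− mice. The array names of PTIP+ replicate 5 and PTIP− replicate 7 carry the same animal number. Their values are different, and several results are also given without them.

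All values are on the log2 scale after robust multi-array averaging (RMA), and over all 58 probe sets they ran from 2.28 to 12.52. A330068G13Rik was well within this range in PTIP+ glomeruli and close to its lower end in many PTIP− samples. In PTIP+ mice probe set A read 8.52, 8.31 and 8.06 in replicates 1 to 3, 8.69 and 7.78 in replicates 4 and 5, and 8.61, 8.18 and 8.42 in replicates 6 to 8. In PTIP− mice it read 4.62, 6.24 and 4.71 in replicates 1 to 3, 4.75, 3.13, 4.25 and 3.75 in replicates 4 to 7, and 4.90, 4.40 and 4.48 in replicates 8 to 10. The genotypes did not overlap. PTIP− replicate 2 was the highest of its genotype and PTIP+ replicate 5 the lowest of its own, and 1.53 still lay between them. The PTIP+ mean was 8.32 ± 0.30 (SD, n = 8). The PTIP− mean was 4.52 ± 0.80 (SD, n = 10). The array-weighted limma fit gave a log2 fold change of −3.74 (standard error 0.21), which corresponds to a 13.4-fold lower signal. It was −3.11 or 8.64-fold with arrays centred on their median, here always the median over the 58 probe sets.

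Probe set B was lost to a smaller extent. In PTIP+ mice it read 5.71, 5.80 and 5.41 in replicates 1 to 3, 4.86 and 4.34 in replicates 4 and 5, and 5.71, 5.61 and 5.83 in replicates 6 to 8. In PTIP− mice it read 3.44, 4.28 and 3.45 in replicates 1 to 3, 3.21, 3.20, 4.25 and 3.42 in replicates 4 to 7, and 3.43, 3.16 and 3.37 in replicates 8 to 10. Here the genotypes nearly touched, with 0.06 between PTIP+ replicate 5 and PTIP− replicate 2, the same pair of mice that bounded the gap of probe set A. The other low PTIP+ value was that of replicate 4, and these 2 mice are all the PTIP+ mice of series 2. The PTIP+ mean was 5.41 ± 0.53 (SD, n = 8) and the PTIP− mean 3.52 ± 0.41 (SD, n = 10), so the larger spread was in PTIP− mice by probe set A and in PTIP+ mice by probe set B. The log2 fold change was −2.21 (standard error 0.18), or 4.62-fold lower, and −1.60 or 3.04-fold with centred arrays. Without array weights the difference was −1.89, and limma gave low weights to the lowest PTIP+ mice, replicates 4 and 5 (0.379 and 0.447), and to the highest PTIP− mice, replicates 2 and 6 (0.506 and 0.259), but also to PTIP− replicates 5 and 7 (0.517 and 0.368), which were not high for this probe set. Most PTIP− values of probe set B lay in the lowest part of the table's range, where array background compresses differences, so its fold change is not an exact size.

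**Figure D1:**
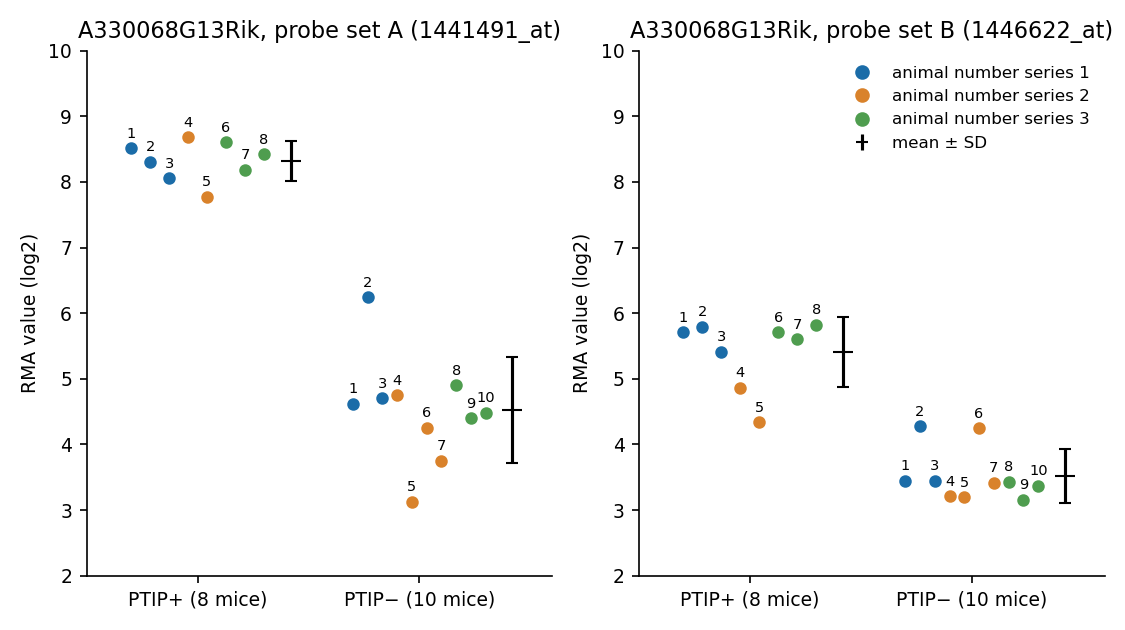
RMA values (log2, vertical axis) of both A330068G13Rik probe sets in every PTIP+ and PTIP− mouse, numbered by replicate and coloured by animal number series; the black bars are the mean ± SD of each genotype. The gap between the genotypes is 1.53 for probe set A and 0.06 for probe set B, bounded in both by PTIP+ replicate 5 and PTIP− replicate 2.

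Both A330068G13Rik probe sets were among the 33 of 58 (56.9%) that were lower in PTIP− mice with a limma adjusted p no higher than 0.05 and a log2 fold change at or below −1. With centred arrays 12 were lower by these limits, both A330068G13Rik probe sets among them. Both were also among the 10 of 58 (17.2%) for which every PTIP− mouse was below every PTIP+ mouse. As the members and the table were selected on this contrast, nothing is read from these counts. By log2 fold change, probe set A had the decrease of rank 2 in the table, between Wif1 at −4.38 (standard error 0.27) and the main Ntrk3 probe set at −3.10 (standard error 0.21). From unweighted means, the differences of probe set A and Wif1 were −3.80 and −3.88, closer together than the spread among mice of 1 genotype. The decrease of probe set B had rank 8, between the Ntrk3 probe sets 1425070_at at −2.38 and 1455917_at at −1.91, and its distance to either was smaller than its own pooled SD of 0.47 within genotypes.

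The signal left in each PTIP− mouse was expressed as a percentage of the PTIP+ mean of the same probe set. For probe set A, 7.69%, 23.7% and 8.16% was left in replicates 1 to 3. In replicates 4 to 7 of series 2 the residual signal of probe set A was 8.44%, 2.74%, 5.97% and 4.21%. In replicates 8 to 10 it was 9.34%, 6.59% and 6.98%. Thus 9 of the 10 mice kept less than 10% of the PTIP+ mean of A330068G13Rik by this probe set, and PTIP− replicate 2 stood above them. The median was 7.33%. These percentages are from arrays that were not centred, and residual signal with centred arrays was not analysed here for either probe set. Centring moved the fold change of probe set A from 13.4-fold to 8.64-fold lower, and that of probe set B from 4.62-fold to 3.04-fold. The share of mice under 10% therefore holds for arrays that were not centred.

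For probe set B the residual signal was 25.6%, 45.7% and 25.7% in replicates 1 to 3, 21.8%, 21.6%, 44.6% and 25.1% in replicates 4 to 7, and 25.4%, 21% and 24.3% in replicates 8 to 10. Replicates 2 and 6 stood apart here, on arrays that were not centred, and the other 8 mice lay close together. Replicate 6 was not high by probe set A, so the A330068G13Rik probe sets ranked this mouse differently. With values this near the lower end of the table, part of the signal of either probe set may be array background, which would make the percentages too high.

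PTIP− replicate 2 also kept the most Wif1, 24.2% against a median of 6.40% over the PTIP− mice, and the most signal of the main Ntrk3 probe set, 24.9% against a median of 12.5%. For the other 4 Ntrk3 probe sets it ranked 2, 4, 6 and 9 of the 10 mice, and replicate 6 kept the most. The high residual in this mouse was not limited to lost transcripts. Over the 36 other probe sets with a negative log2 fold change, called or not, its median deviation from the PTIP− mean was 0.48, and over the 20 with a positive one it was 0.50. Its median over the 58 probe sets of the table, 6.77, exceeded that of every other PTIP− mouse, of which replicate 6 had the highest at 6.40. These probe sets were selected for change, so this median is not the level of the whole array. Its deviation for A330068G13Rik was 1.72 by probe set A and 0.76 by probe set B. The part of this median level in these values was not tested. In PTIP+ replicate 5, with the lowest A330068G13Rik signal of its genotype, the same 36 probe sets had a median deviation of −0.42 and the 20 of −0.08, beside −0.54 for probe set A and −1.07 for probe set B.

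**Figure D2:**
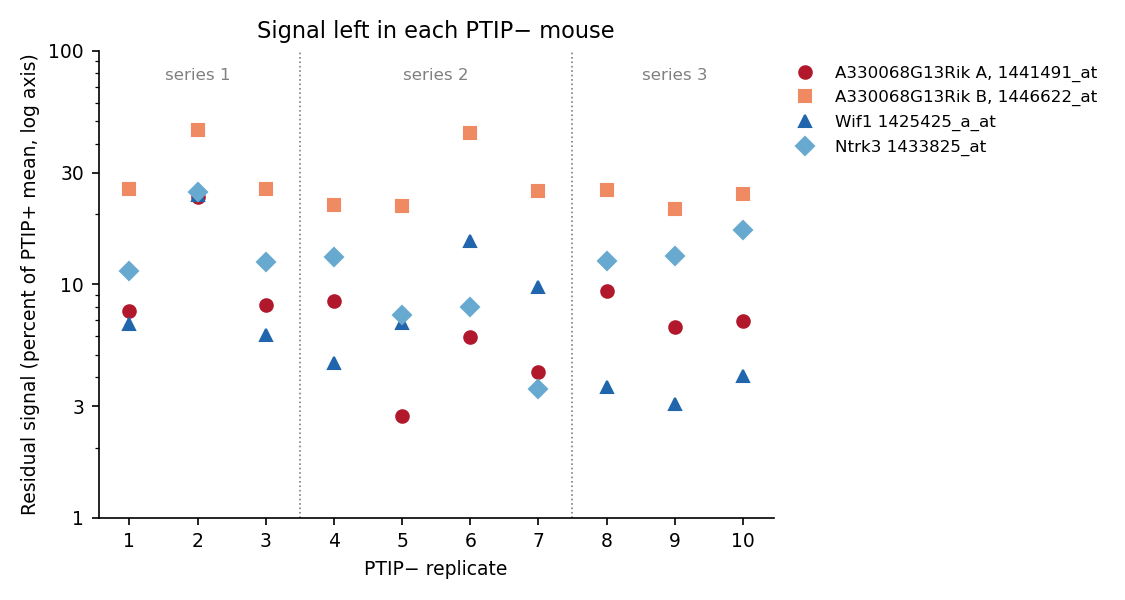
Residual signal of both A330068G13Rik probe sets, Wif1 and the main Ntrk3 probe set in each PTIP− mouse, as a percentage of the PTIP+ mean of the same probe set on a log axis; dotted lines separate the animal number series. PTIP− replicate 2 is the highest mouse for all 4 probe sets, at 23.7%, 45.7%, 24.2% and 24.9%.

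Whether the loss of A330068G13Rik had the same size in every series was not part of how it was chosen and could be tested. From series 1 to series 3 the differences of means for probe set A were −3.10, −4.26 and −3.81. For probe set B they were −1.92, −1.08 and −2.40. In each series every PTIP− mouse was below every PTIP+ mouse for both, which follows from the separation over all mice and tests nothing further. Series 2 showed the greatest difference of means by probe set A and the smallest by probe set B. Compared with mice of the same genotype in the other series, its PTIP− mice were lower by probe set A (−0.92) while its PTIP+ mice were close to the others (−0.12). For probe set B the reverse held, with PTIP+ mice of series 2 at −1.08 and PTIP− mice at −0.0044.

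The limma interaction of genotype and series did not pass an adjusted p of 0.05 for either A330068G13Rik probe set, at 0.397 for probe set A and 0.0702 for probe set B. It passed for 9 of the 58 probe sets (15.5%). Hence 0 of 2 A330068G13Rik probe sets were called, at unadjusted limma p-values of 0.212 and 0.017, and 1 of them was under 0.05, as were 18 of the 58 probe sets (31%). Without the mice that share an animal number, the adjusted p of probe set A from limma was 0.0731, within a range of 0.0731 to 0.439 over its alternatives. For probe set B all alternatives gave a higher adjusted p from limma, 0.197 without array weights, 0.305 without these mice and 0.401 with centred arrays. Wif1 itself passed, with an adjusted p of 0.0473 from limma, and its differences in the 3 series were −3.71, −2.93 and −4.87. The main Ntrk3 probe set did not pass, with an adjusted p of 0.421 from limma and differences of −2.48, −3.57 and −3.20. With series as a block, the log2 fold changes of A330068G13Rik were −3.78 and −2.12.

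Covariation between mice of the same genotype was likewise not used in choosing A330068G13Rik. In all, 10 relations were tested, those between its probe sets and those of each probe set with Wif1 and with the main Ntrk3 probe set, in each genotype. The farthest mice of a relation are the 2 that lie farthest from their genotype's median of the A330068G13Rik probe set, of A for the relation between A and B, whatever their value of the other transcript. Two-sided permutation tests were used, exact ones for the 8 PTIP+ mice, with adjustment over the 10 relations. All 10 Pearson correlations were positive, and 1 passed an adjusted p of 0.05. Positive values were common in the table. Over the 56 other probe sets the median r in PTIP+ mice was 0.144 with probe set A and 0.507 with probe set B. In PTIP− mice it was 0.302 and 0.198.

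The A330068G13Rik probe sets were only loosely related to each other. Among PTIP+ mice r was 0.475 (exact permutation p = 0.236, adjusted p = 0.295) and rho was 0.286 (exact permutation p = 0.501). Among PTIP− mice it was 0.532 (permutation p = 0.143, adjusted p = 0.264) and rho was 0.442 (permutation p = 0.205). Again in PTIP+ mice, r was −0.266 without replicate 5 and 0.847 without replicate 4 (exact permutation, adjusted p = 0.0437, over alternatives ranging from 0.0437 to 0.944). Leaving out both, the farthest mice, gave 0.708. For PTIP− mice r was 0.078 without replicate 2, 0.783 without replicate 6 and −0.244 without the farthest mice, replicates 2 and 5. It was 0.980 in the 6 mice outside series 2, replicate 2 among them, where rho was 0.829 (exact permutation p = 0.0583 for rho and 0.0069 for r, adjusted p = 0.0417, over alternatives ranging from 0.0417 to 0.824). Taken as deviations from series means, r was 0.875 in PTIP+ mice (exact permutation p = 0.125 within series) and 0.593 in PTIP− mice (exact permutation p = 0.220 within series).

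The relation of probe set B with Wif1 had the highest r of those tested, in either genotype. In PTIP− mice r was 0.862 (permutation p = 0.0038, adjusted p = 0.0381), while rho was 0.624 (permutation p = 0.0609). Replicates 2 and 6 were the highest for both transcripts, and the relation was weaker without both. Without these mice r was 0.375 (exact permutation p = 0.352). The adjusted p was also above 0.05 with arrays centred on their median (r = 0.662, adjusted permutation p = 0.185) and when replicate 1, 2, 3, 6 or 9 was left out, where r was 0.864, 0.752, 0.862, 0.840 and 0.848 and the adjusted p was between 0.0524 and 0.0975. Over all alternatives it ranged from 0.0193 to 0.440. In the 6 mice outside series 2, which include replicate 2 but not replicate 6, r was 0.962 (exact permutation, adjusted p = 0.0417). There rho was 0.886 (exact permutation p = 0.0333). Within series the r of deviations was 0.914 (exact permutation p = 0.0093, adjusted p = 0.0463). In PTIP+ mice r was 0.791 (exact permutation p = 0.0159, adjusted p = 0.0529) and rho 0.833 (exact permutation p = 0.0154). Without replicate 1 it was 0.923 (exact permutation, adjusted p = 0.0119, over alternatives ranging from 0.0119 to 0.391). It was 0.548 without replicates 4 and 5, which are series 2, and 0.613 within series. Wif1 did not stand out among PTIP+ mice, where r with probe set B reached 0.926 for another lost and 0.896 for a gained transcript. Among PTIP− mice Wif1 had the highest r with probe set B, followed by 0.856 for a gained transcript.

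By probe set A the relation of A330068G13Rik with Wif1 did not pass. Pearson's r was 0.479 (exact permutation p = 0.232, adjusted p = 0.295) and rho was 0.381 (exact permutation p = 0.360) in PTIP+ mice. The PTIP− mice had an r of 0.307 (permutation p = 0.386, adjusted p = 0.428) and a rho of −0.152 (permutation p = 0.683). Among PTIP− mice r was −0.424 without replicate 2 and −0.566 without replicates 2 and 5, but 0.910 in the 6 mice outside series 2 (adjusted permutation p = 0.185), which include replicate 2. In PTIP+ mice r was 0.131 without replicate 5, 0.814 without replicate 4 (exact permutation, adjusted p = 0.0611) and 0.634 without both. Deviations from series means gave 0.625 in PTIP+ mice (exact permutation p = 0.0139, the smallest that 72 orders within series allow, adjusted p = 0.0463) and 0.492 in PTIP− mice (exact permutation p = 0.338).

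With the main Ntrk3 probe set the order of A and B was the other way round, and A had the closer relation over all mice of either genotype. In PTIP− mice r was 0.785 (permutation p = 0.0148, adjusted p = 0.0529) and rho was 0.685 (permutation p = 0.0353). The PTIP+ mice had an r of 0.742 (exact permutation p = 0.0353, adjusted p = 0.0882) and a rho of 0.667 (exact permutation p = 0.0831). Neither passed after adjustment, and the difference from probe set B was not tested. The low end in PTIP− mice was formed by replicates 5 and 7 of series 2, and without replicate 7 r was 0.862 (exact permutation, adjusted p = 0.0332, over alternatives ranging from 0.0332 to 0.882). Without the mice farthest by probe set A, replicates 2 and 5, r was 0.828 and rho 0.405 (exact permutation p = 0.327), with replicate 7 kept. In the 6 PTIP− mice outside series 2, replicate 2 among them, A was not the closer. There r was 0.798 for A and 0.813 for B, and rho for A was 0.143 (exact permutation p = 0.803). Within series r was 0.668 in PTIP− mice (exact permutation p = 0.119) and 0.975 in PTIP+ mice (exact permutation p = 0.0139, adjusted p = 0.0463), and it was 0.732 in PTIP+ mice without replicates 4 and 5.

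For B and the main Ntrk3 probe set, r was 0.542 in PTIP+ mice (exact permutation p = 0.158) with rho at 0.476 (exact permutation p = 0.243). For the PTIP− mice r was 0.221 (permutation p = 0.508) and rho 0.030 (permutation p = 0.946). Among PTIP+ mice this r was 0.233 without replicate 5, 0.603 without replicates 4 and 5, and 0.879 within series. The PTIP− mice gave −0.109 without the 2 farthest mice, 0.813 outside series 2 and 0.295 within series. Outside series 2, where replicate 2 was kept, rho was −0.029. The choice of Ntrk3 probe set mattered for A330068G13Rik in PTIP− mice. With the mean of all 5 Ntrk3 probe sets, r was 0.046 for probe set A and 0.735 for probe set B, and rho was −0.079 and 0.212. Neither r passed after adjustment (permutation, adjusted p = 0.882 and 0.0795). Of these 5 probe sets 1425070_at and 1455917_at had negative r with probe set A in PTIP− mice, −0.341 and −0.528, and 1425071_s_at and 1422329_a_at had 0.074 and 0.052.

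**Figure D3:**
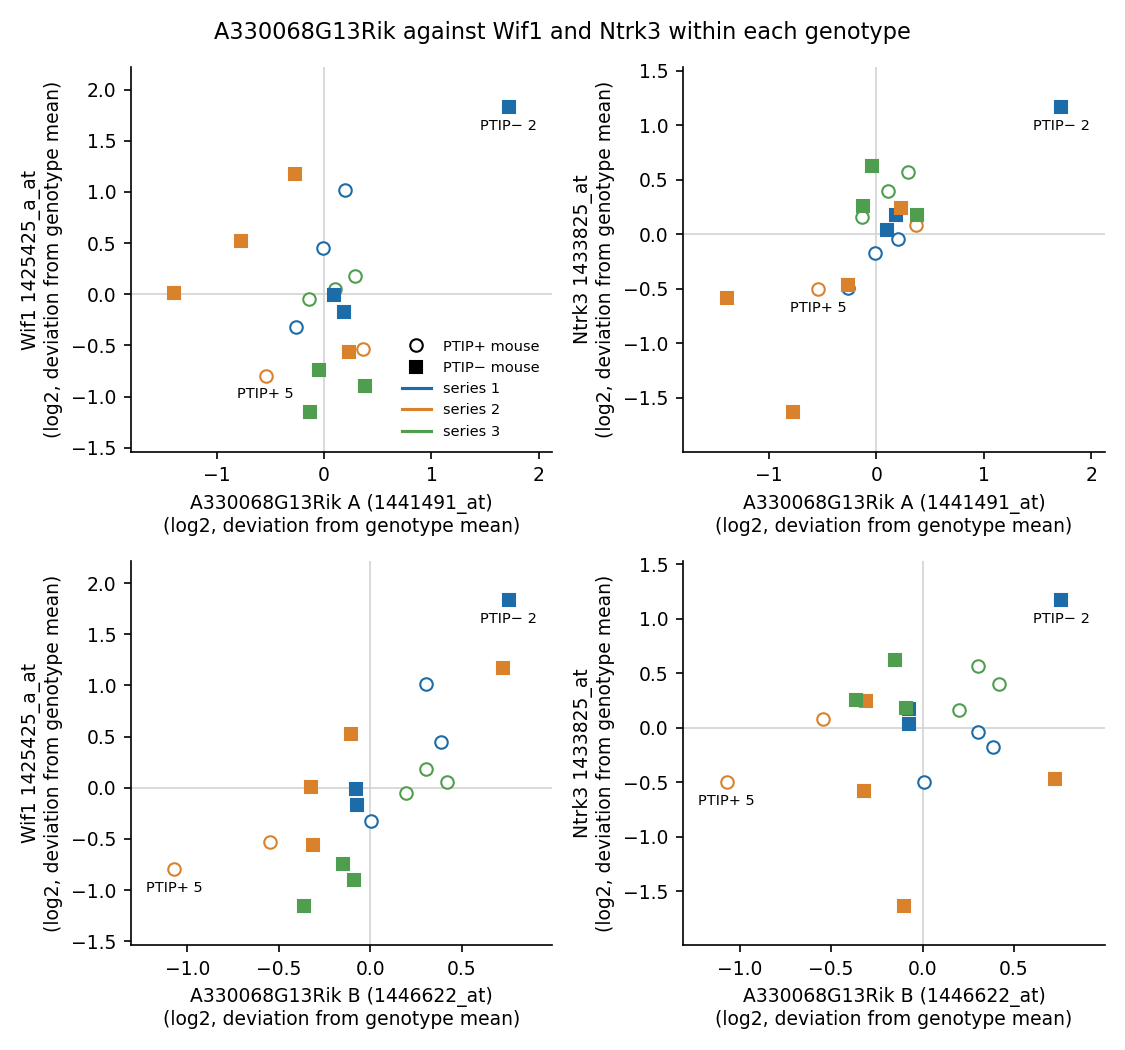
Deviation of each mouse from the mean of its genotype (log2) for probe set A (top) and probe set B (bottom) of A330068G13Rik on the horizontal axis, against Wif1 (left) and the main Ntrk3 probe set (right) on the vertical axis; circles are PTIP+ and squares PTIP− mice, coloured by animal number series. PTIP− replicate 2 is at the upper right of every panel, and the r without it and the other farthest mouse is −0.566 and 0.828 in the top panels and 0.375 and −0.109 in the bottom panels for PTIP− mice.

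The other 56 probe sets were ordered by their likeness to A330068G13Rik, taken as the mean of 4 Pearson correlations, of either probe set within either genotype. The most alike was Wif1 with a mean of 0.610. It was followed by 1457125_at, which has no symbol in the table, at 0.582, and by the main Ntrk3 probe set at 0.572. Next came Gdf5, a secreted growth factor of the bone morphogenetic protein family, at 0.543, and Fa2h, an enzyme that hydroxylates fatty acids, also at 0.543. For all 5 each of the 4 correlations with A330068G13Rik was positive, but single values were as low as 0.051, and all 5 had a negative log2 fold change, that of 1457125_at (−0.97) short of the limit. With centred arrays the means were lower, 0.373 for Wif1, 0.207 for 1457125_at, 0.293 for the main Ntrk3 probe set, 0.221 for Gdf5 and 0.159 for Fa2h. Their ranks were then 1, 7, 3, 4 and 10, and only Wif1 kept 4 positive correlations. The main Ntrk3 probe set had negative r with probe set B in both genotypes. With probe set A, r was −0.748 for 1457125_at in PTIP+ mice, and −0.214 in PTIP+ and −0.047 in PTIP− mice for Gdf5. For Fa2h it was −0.089 with probe set A and −0.163 with probe set B in PTIP+ mice. Without the mice that share an animal number the means were 0.532, 0.437, 0.487, 0.482 and 0.366, in the same order of probe sets. In this setting r with probe set A in PTIP+ mice was −0.576 for 1457125_at and −0.385 for Fa2h. The median of this mean was 0.312 over the 36 other probe sets with a negative log2 fold change and 0.227 over all 56.

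The most opposite were both probe sets of Prm1, a protamine that packs DNA in sperm, at −0.319 for the one with the larger increase and −0.303 for 1437054_x_at, and 1457780_at of Stx11, a syntaxin of vesicle fusion, at −0.274. These means came mostly from PTIP+ mice. With probe set B the correlations there were −0.827, −0.959 and −0.896, whereas in PTIP− mice they were 0.183, 0.255 and 0.364. Without the mice that share an animal number those in PTIP+ mice were −0.417, −0.878 and −0.920, and the means were −0.208, −0.183 and −0.211. With centred arrays the means were −0.185, −0.142 and −0.333, and the Prm1 probe sets ranked 47 and 43 of 56. The centred mean of Stx11 did not come mostly from PTIP+ mice. Its r with probe sets A and B was 0.384 and −0.786 in PTIP+ mice and −0.738 and −0.192 in PTIP− mice. The Prm1 signal in PTIP+ mice was at the lower end of the table, with means of 2.84 and 3.63, so these correlations of Prm1 were taken from signal near array background. Of the other transcripts gained in PTIP− mice, Padi4, which converts arginine to citrulline in proteins, had a mean of −0.190 and ranked 50 of 56, and Tspan32, a tetraspanin membrane protein, had 0.374 and ranked 17.

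**Figure D4:**
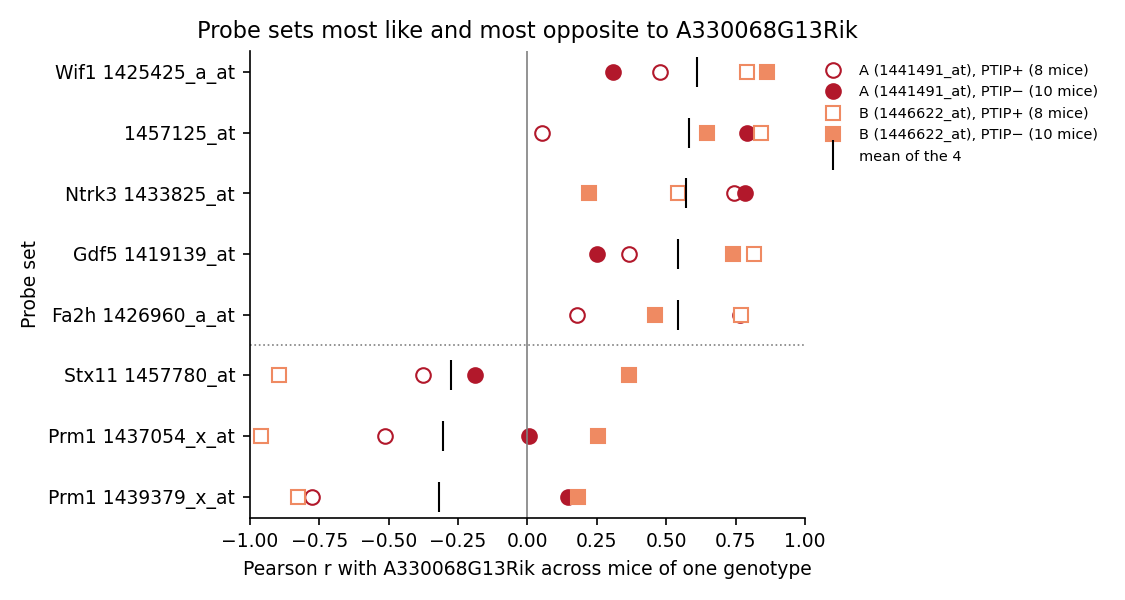
Pearson correlations across mice of 1 genotype (horizontal axis) of each A330068G13Rik probe set with the 5 most alike and the 3 most opposite probe sets, above and below the dotted line; black ticks are the mean of the 4 correlations. The means run from 0.610 for Wif1 to −0.319 for the first Prm1 probe set, and for Prm1 the negative values are those of PTIP+ mice.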

How the data were processed

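Arrays of 18 mice were normalized by the authors with RMA, and the deposited table holds log2 values of 58 probe sets that they selected for a difference between the genotypes. Its columns with the authors' own fold changes, statistics and p-values were not used. All columns of values were mapped to mice by title (0 unmapped), and 0 pairs of arrays were identical. Probe sets A and B of A330068G13Rik are 1441491_at and 1446622_at, and the main Ntrk3 probe set is 1433825_at. Genotype was fitted to all 58 probe sets with limma 3.58.1 in R 4.3.3, with array weights, after a test on simulated data. The methods name weighted linear models without naming the weights. Calls needed a variance above 0.1, a Benjamini-Hochberg adjusted p of 0.05 or less over the 58 probe sets and a log2 fold change of 1 in size. The interaction with animal number series was fitted likewise. Correlations were tested within genotypes by permuting pairings, exactly for up to 9 mice and with 100000 resamples for 10, in Python 3.11.15 with numpy 2.4.6. The methods describe RNA from individual mice, and all were treated as separate animals, although 2 array names carry the same animal number. The number of mice limits the precision. Named were A330068G13Rik, Wif1, Ntrk3, Prm1, Padi4, Tspan32, the 5 most alike and 3 most opposite probe sets and the neighbours by fold change. Members and lists were chosen with earlier results of these data known. Omitting series 2, and the alternatives for the ranking by likeness, were added after the data were seen.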

Additional observations from a re-analysis of the deposited data

Results flagged for a closer look

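For the Ntrk3 probe set 1425070_at, a neighbour of A330068G13Rik probe set B by size of decrease, PTIP− replicate 6 stood far from the other mice of its genotype. It read 7.77 on the log2 scale, and the other PTIP− mice lay between 4.82 and 6.25. The same mouse had a high residual signal of probe set B, 44.6% of the PTIP+ mean, next to 45.7% in replicate 2. For 1425070_at replicate 2 ranked 4 of the 10 PTIP− mice and did not stand apart. Of the 32 groups looked at (16 named probe sets in each genotype) that of 1425070_at in PTIP− mice was the 1 in which a mouse stood so far apart, where chance gives about 1 in 20 groups, or 1.6. No mouse of either genotype met this limit for A330068G13Rik, and the nearest was PTIP− replicate 2 for probe set A, whose gap to the next mouse was 0.432 of the range.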

How the results depend on the processing

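The difference of A330068G13Rik between the genotypes is a description, since the gene and the table were chosen on it. The log2 fold change lay between −3.82 and −3.11 for probe set A and between −2.30 and −1.60 for probe set B, and with single mice left out between −3.82 and −3.67 and between −2.27 and −2.14. Centring arrays on their median gave the smallest decreases, −3.11 and −1.60. The array medians differed by −0.46 between PTIP− and PTIP+ mice, and a median over probe sets selected for change carries part of that change. Centring also left 32 called probe sets in place of 52 (31 shared), with 12 lower and 20 higher in place of 33 and 19. Without single mice 48 to 55 were called.

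The replicate block over replicates 1 to 8 gave log2 fold changes of −3.72 and −1.94 and 48 called probe sets. Mice with the same replicate number correlated above 0.1 in 5 of 8 pairs (r from −0.35 to 0.62). Mice with different replicate numbers were not compared, so whether these numbers pair the mice was not tested. The 6 pairs within a series ran from −0.0075 to 0.62 and the 2 across series were −0.35 and −0.19, and whether the series are batches was not tested.

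The correlations were less stable. With centred arrays r was −0.033 between the A330068G13Rik probe sets in PTIP+ mice. For probe set B with the main Ntrk3 probe set it was −0.028 in PTIP+ and −0.203 in PTIP− mice, and with Wif1 in PTIP− mice 0.662. Without the 2 farthest mice it was, in PTIP− mice, −0.244 between the probe sets, −0.566 for probe set A with Wif1, 0.375 for probe set B with Wif1 and −0.109 for probe set B with the main Ntrk3 probe set, called Ntrk3 from here on. Without the mouse whose animal number is shared it was −0.266 between the probe sets in PTIP+ mice, and 0.862 for probe set A with Ntrk3 in PTIP− mice. Deviations from series means gave 0.625 with Wif1 and 0.975 with Ntrk3 for probe set A in PTIP+ mice, and without series 2 the probe sets had 0.980 in PTIP− mice.

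With single mice left out, r between the probe sets ranged from −0.266 to 0.847 in PTIP+ mice. In PTIP− mice it ranged from −0.424 to 0.403 for probe set A with Wif1, from −0.213 to 0.469 for probe set B with Ntrk3, from 0.752 to 0.900 for probe set B with Wif1 and from 0.682 to 0.862 for probe set A with Ntrk3. In PTIP+ mice probe set B with Wif1 ranged from 0.693 to 0.923. The range of r was 0.078 to 0.783 between the probe sets in PTIP− mice, and in PTIP+ mice 0.131 to 0.814 for probe set A with Wif1 and 0.233 to 0.636 for probe set B with Ntrk3. The remaining settings, some of which hold the same mice, kept the direction of r and its side of the threshold, but not always its size: with the mean of all Ntrk3 probe sets, probe set A in PTIP− mice went from 0.785 to 0.046. All 6 interaction tests stayed above the threshold. The ranking by likeness was less stable as well, and with centred arrays the mean for Wif1 fell from 0.610 to 0.373. Fewer mice, or mice of fewer series, made up several of these settings, and otherwise the cause was not tested. Signal near array background limits the PTIP− values, and calls of detection were not analysed here.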
